A study of Rattus norvegicus with 6 samples.

Results

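The mRNAs of 8 transcription factors that sense xenobiotics, bile acids or hormones were described in rat liver: the pregnane X receptor (PXR, Nr1i2), the constitutive androstane receptor (CAR, Nr1i3), the aryl hydrocarbon receptor (Ahr) and its partner Arnt, the farnesoid X receptor (FXR, Nr1h4), the retinoid X receptor alpha (Rxra), the thyroid hormone receptor beta (Thrb) and the glucocorticoid receptor (Nr3c1). Each was taken at the locus that carries its symbol, and all 8 were found among 33022 deposited loci. Nr3c1 alone occurred on 2 loci, of which the one with the higher mean was used. All 8 were among the 10201 loci compared, which carried a symbol, were estimated without failure in every library and averaged 1 FPKM or more. FPKM are fragments per kilobase of transcript, scaled by a factor for each library. How that factor was set is not given in the sources used here.

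Obesity-prone male Sprague Dawley rats were kept on a control diet (CD; TD 08485) or received a Western diet (WD; TD 88137), rich in milk fat, sucrose and cholesterol, for 2 weeks. After a 16 h fast the rats of both groups were refed for 1 h, so that every value is from the refed state. Total liver RNA and 2 parts of a sucrose gradient of left lobe homogenate were sequenced, namely a light fraction (mRNA with up to 3 ribosomes) and a heavy fraction (mRNA with at least 4). RNA from 3 rats was pooled for each of the 6 libraries. Each combination of diet and RNA kind therefore had 1 library, which leaves no replicate and allows no test between the diets.

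PXR, CAR, FXR and Thrb are nuclear receptors that bind DNA as heterodimers with Rxra, whereas the glucocorticoid receptor binds as a homodimer. Ahr is not a nuclear receptor by structure. It belongs to the bHLH-PAS family, waits in the cytoplasm with chaperones of the Hsp90 machinery and pairs with Arnt in the nucleus once a ligand is bound. In hepatocytes PXR, CAR and Ahr drive the genes of drug metabolism, FXR limits bile acid synthesis and promotes bile acid export, Thrb carries most of the thyroid hormone response, and the glucocorticoid receptor drives fasting genes such as those of gluconeogenesis.

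Depth limits what follows. Fragment numbers could be inferred from the FPKM values for 67.2% of the 13283 loci above 0 in at least 2 libraries and for 4 of the 8 receptors (Nr1i2, Ahr, Rxra and Nr3c1). Together these 4 had between 213 and 823 fragments per library, and the WD light library was the deepest. The 95% intervals given for their ratios are exact (Clopper-Pearson, or a conditional odds ratio for ribosome density). These intervals cover counting error only, since the 3 rats of a pool cannot be seen apart and PCR copies were not separated, and they compare the libraries, not the diets. For Nr1i3, Arnt, Nr1h4 and Thrb the values had no such whole-number pattern, and only the 95% bounds of Cufflinks were at hand. For all 8 receptors those bounds overlapped among all 6 libraries. The share of all loci with such overlap is not given here. In total RNA the 8 hepatocyte markers, all found, summed to 86747 FPKM in the CD and 79223 in the WD, or 13.1% and 12.8% of the sum over loci with a symbol. Markers of Kupffer cells summed to 99.1 and 117 FPKM (9 of 9 found), those of endothelial cells to 68.2 and 83.3 (6 of 7), those of stellate cells to 49.6 and 57.0 (7 of 8, Col1a2 at 0 in all libraries) and those of cholangiocytes to 0.694 and 4.35 (4 of 5, Krt7 and Cftr at 0). The summed level of the 5 blood markers found of 7 was 28.5 FPKM in CD total RNA and 14.3 in WD total RNA, but 43.5 in the CD light fraction and 294 in the WD light fraction. In bulk liver RNA, fewer cells of a type and less RNA per cell cannot be told apart. The part of these markers, and of depth, in the results on the receptors was not tested.

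**Figure D1:**
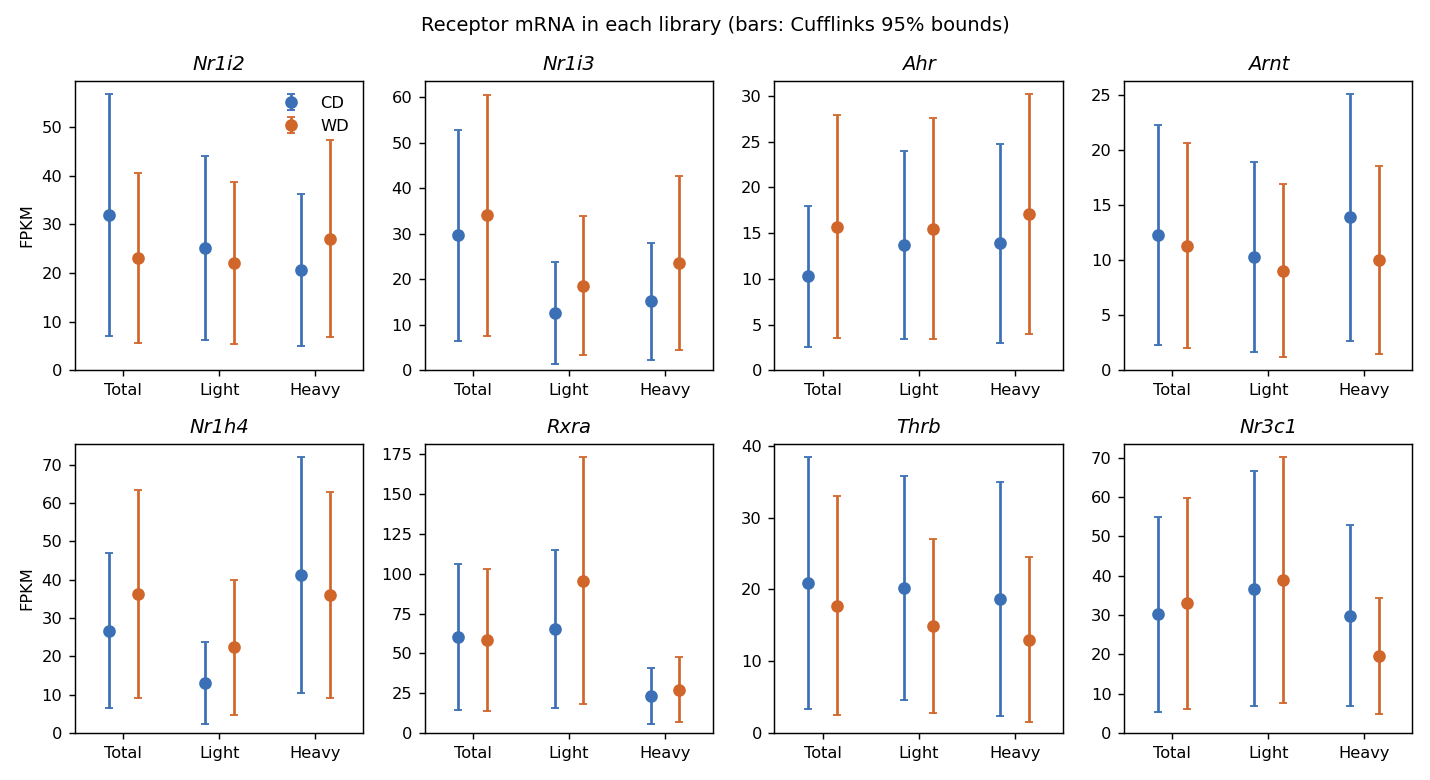
FPKM of each receptor mRNA (vertical axis, starting at 0, a scale of its own in each panel) in total RNA and the light and heavy fractions of CD (blue) and WD (orange) liver; points are single pooled libraries and bars are the 95% bounds of Cufflinks. The bounds of the 6 libraries overlap in every panel, and Rxra reaches 95.6 FPKM in the WD light fraction against 23.1 and 27.1 FPKM in the heavy fractions.

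All 8 mRNAs were above the median locus in each library. That median lay between 5.97 and 6.83 FPKM in the 6 libraries, and the lowest single value among the receptors was 9.03 FPKM (Arnt, WD light fraction), which was above 57.1% of loci, while the highest value of Rxra was above 94.1%. In total RNA of CD livers the order was Rxra (60.3 FPKM), Nr1i2 (32.0), Nr3c1 (30.1), Nr1i3 (29.7), Nr1h4 (26.7), Thrb (20.9), Arnt (12.2) and Ahr (10.3). In the WD it was Rxra (58.4 FPKM), Nr1h4 (36.3), Nr1i3 (34.1), Nr3c1 (33.0), Nr1i2 (23.1), Thrb (17.7), Ahr (15.7) and Arnt (11.3). Rxra thus headed both orders and also both light fractions, while Nr1h4 headed both heavy fractions. No neighbours in these orders were apart beyond the Cufflinks bounds. Of the 28 pairs of receptors, none had bounds that did not overlap in 5 of the libraries, and 1 pair, Rxra and Arnt, did so in the WD light fraction.

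The levels of receptor and partner were set side by side on the same FPKM scale, which corrects for transcript length. In total RNA the Rxra level was 1.89 times that of Nr1i2 in the CD and 2.53 times in the WD. Over Nr1i3 the same quotient was 2.03 and 1.71, over Nr1h4 2.26 and 1.61, and over Thrb 2.88 and 3.29. The mRNA of the shared partner was therefore listed above that of each of its 4 partners in total RNA of both diets. In the heavy fraction this did not hold for Nr1h4, to which the Rxra level was 0.561 times in the CD and 0.753 times in the WD. The quotient of Ahr to Arnt was 0.838 in CD total RNA and 1.39 in WD total RNA, 1.34 and 1.71 in the light fraction, and 1.00 and 1.71 in the heavy fraction.

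The 5′ ends of the mRNAs are shown for the receptors whose ribosome density results are described at most length, since a 5′ terminal oligopyrimidine (TOP) stretch, a C followed by pyrimidines at the very start, is the sequence known to tie the translation of ribosomal protein mRNAs to mTORC1 after a meal. Each line holds 5 bases before and 20 bases from the annotated start in RefSeq (build GRCr8, 5′ to 3′ on the strand of the gene), with the first 5 bases of the mRNA in capitals. Rps18, a ribosomal protein mRNA, is given for comparison.
Nr1i2 (chr11:75965712-75965736, + strand): gaatcAGAGGtagagactgctcatt
Rxra (chr3:31387887-31387911, + strand): ccgccCGGGCcccgggcgggccgcg
Nr3c1, first start (chr18:31614200-31614224, - strand): gttctGCTTTgcaacttctcccggt
Nr3c1, second start (chr18:31613420-31613444, - strand): ccctcGCTCGgtcccgctcgcctgc
Rps18 (chr20:4933740-4933764, + strand): ccgctCTCTCttccacaggaggcct

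Starts were matched for 7 of the 8 receptors, with 8 starts in all, and Nr1h4 was not matched. On the strand of the gene, 0 of these 8 starts opened with a C and 4 further pyrimidines, a form held by 2.63% of the 33469 annotated starts. The longest unbroken pyrimidine run from the first base was 1 among the receptors and 9 in Rps18. The match is a description of annotated letters and not of the start used in these livers.

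The xenobiotic receptors come first. For Nr1i2, PXR (Rnor_6.0 chr11:65022100-65058545), the level was 32.0 FPKM (CD) and 23.1 FPKM (WD) in total RNA, 25.2 and 22.1 in the light fractions, and 20.6 and 27.0 in the heavy fractions. CD was the higher of the pair in total RNA and the light fraction, and WD in the heavy fraction. These values rest on 78 and 54 fragments in total RNA, 42 and 80 in the light and 32 and 43 in the heavy fractions. On the scale of log2(FPKM + 0.1), used for every change below, the WD to CD difference was -0.46 in total RNA, -0.19 in the light and 0.39 in the heavy fraction. The ratio in total RNA was 0.725 with an interval of 0.502 to 1.04, so counting error alone spans no difference. The heavy to light ratio, used here as the measure of ribosome density, was 0.819 in the CD and 1.22 in the WD. The quotient of these, 1.49, had an interval of 0.796 to 2.83.

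Nr1i3, CAR (chr13:89586283-89591277), works on many of the same genes as PXR. Its level was 29.7 FPKM (CD) and 34.1 FPKM (WD) in total RNA, 12.5 and 18.6 in the light fractions, and 15.1 and 23.7 in the heavy fractions. WD was the higher of each pair, and both fractions lay below total RNA in both diets. The log2 difference was 0.20 in total RNA, 0.57 in the light and 0.64 in the heavy fraction, corresponding to ratios of 1.15, 1.48 and 1.56. The heavy to light ratio was 1.21 in the CD and 1.27 in the WD, and its log2 difference was 0.07. Relative to total RNA, the light fraction of Nr1i3 held 0.425 times the level in the CD and 0.548 times in the WD, above only 12.0% and 15.5% of the loci compared.

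Ahr (chr6:54963990-55001464), the receptor for dioxins and for several dietary and microbial indoles, was listed at 10.3 FPKM (CD) and 15.7 FPKM (WD) in total RNA, 13.7 and 15.5 in the light fractions, and 13.9 and 17.1 in the heavy fractions. WD was the higher of each pair, and CD total RNA was the lowest of the 6 values. The fragments behind them were 58 and 85, 53 and 130, and 50 and 63 in the same order. The total RNA ratio was 1.53 (log2 0.61) with an interval of 1.08 to 2.18. Ahr is on a list of steatosis mRNAs higher in the WD that the study drew from these same libraries, so its direction is not independent evidence. The ratio was 1.13 in the light fraction (0.814 to 1.58) and 1.23 in the heavy fraction (0.835 to 1.82), and ribosome density had a ratio of 1.09 with an interval of 0.649 to 1.83.

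Arnt (chr2:196594278-196651206), the nuclear partner of Ahr and of the hypoxia factors, had 12.2 FPKM (CD) and 11.3 FPKM (WD) in total RNA, 10.3 and 9.03 in the light fractions, and 13.9 and 10.0 in the heavy fractions. CD was the higher of each pair. The log2 difference was -0.11 in total RNA, -0.18 in the light and -0.47 in the heavy fraction. The heavy to light ratio was 1.35 in the CD and 1.11 in the WD, a log2 difference of -0.28.

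Nr1h4, FXR (chr7:30003429-30162056), the bile acid sensor, stood out by its place in the gradient. Its level was 26.7 FPKM (CD) and 36.3 FPKM (WD) in total RNA, 13.0 and 22.4 in the light fractions, and 41.2 and 36.0 in the heavy fractions. WD was the higher in total RNA and the light fraction and CD in the heavy fraction. The heavy to light ratio of 3.15 in the CD was above that of 88.9% of the loci compared, and the ratio of 1.60 in the WD was above that of 71.1%. The light fraction differed by 0.78 and the heavy fraction by -0.20 on the log2 scale, which gave a ribosome density difference of -0.97, a ratio of 0.510. In total RNA the log2 difference was 0.44. Divided by total RNA, and not by the light fraction, the heavy fraction gave a difference of -0.64. No counting interval could be given for these ratios.

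Rxra (chr3:6211789-6295908), the shared heterodimer partner, lay on the other side. It had 60.3 FPKM (CD) and 58.4 FPKM (WD) in total RNA, 65.2 and 95.6 in the light fractions, and 23.1 and 27.1 in the heavy fractions. The heavy fraction values were the lowest of both diets, and the WD light fraction was the highest. These rest on 123 and 114, 91 and 290, and 30 and 36 fragments. The heavy to light ratio was 0.355 in the CD (0.226 to 0.540) and 0.284 in the WD (0.194 to 0.401), above that of 16.2% and 15.0% of the loci compared. In both diets the upper limit of counting error thus lay below 1, and of the 4 receptors with fragment numbers only Nr3c1 in the WD shared this. The WD to CD ratio was 0.969 in total RNA (0.744 to 1.26), 1.46 in the light fraction (1.15 to 1.88) and 1.17 in the heavy fraction (0.702 to 1.97). With every library rescaled to the same FPKM sum over loci with a symbol, the light fraction interval became 0.903 to 1.47. Ribosome density had a ratio of 0.799 with an interval of 0.451 to 1.43.

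**Figure D2:**
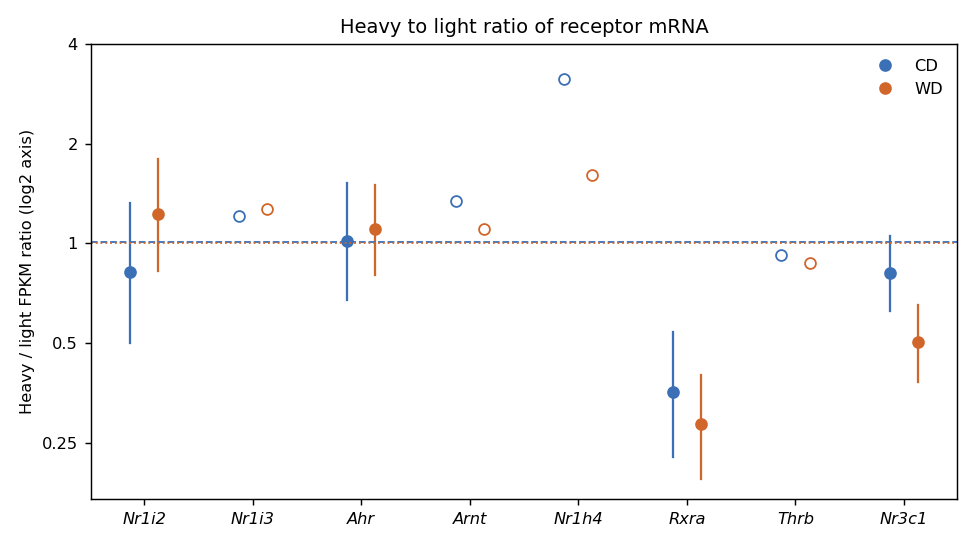
Heavy to light FPKM ratio (vertical axis, log2 scale) of each receptor mRNA in the CD (blue) and the WD (orange), 1 pooled library per fraction; lines are exact 95% counting intervals, open points have none, and the dashed and dotted lines are the medians of all loci compared, 1.01 in the CD and 1.00 in the WD. Rxra lies below the medians in both diets at 0.355 and 0.284, and Nr1h4 lies above them at 3.15 and 1.60.

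The hormone receptors complete the set. Thrb (chr15:8890578-9086282), the main thyroid hormone receptor of liver, had 20.9 FPKM (CD) and 17.7 FPKM (WD) in total RNA, 20.2 and 14.9 in the light fractions, and 18.7 and 13.0 in the heavy fractions. CD was the higher of each pair. The log2 difference was -0.24 in total RNA, -0.44 in the light and -0.52 in the heavy fraction. With heavy to light ratios of 0.924 and 0.874, ribosome density differed by only -0.08.

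Nr3c1, the glucocorticoid receptor (chr18:31728373-31749647), had 30.1 FPKM (CD) and 33.0 FPKM (WD) in total RNA, 36.7 and 39.0 in the light fractions, and 29.9 and 19.5 in the heavy fractions. The diets were close in total RNA and the light fraction, and the WD heavy fraction was the lowest of the 6 values. Nr3c1 was also the best covered of the 4 receptors with fragment numbers, with 168 and 176, 140 and 323, and 106 and 71 fragments. The WD to CD ratio was 1.10 in total RNA (0.882 to 1.36), 1.06 in the light fraction (0.868 to 1.30) and 0.655 in the heavy fraction (0.477 to 0.892). The heavy to light ratio was 0.814 in the CD (0.626 to 1.05) and 0.502 in the WD (0.382 to 0.650). Their quotient was 0.617 with an interval of 0.423 to 0.898, which became 0.531 to 1.13 with the libraries rescaled to the same FPKM sum. The heavy fraction interval became 0.469 to 0.877 under that rescaling.

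A second locus with the symbol Nr3c1 (chr18:32669427-32670665) was far less covered. It had 6.74 FPKM (CD) and 3.52 FPKM (WD) in total RNA, 8.63 and 18.7 in the light fractions, and 9.27 and 3.88 in the heavy fractions, from 3 to 33 fragments per library. Its heavy to light ratio was also lower in the WD, at a quotient of 0.197, but the interval of 0.0273 to 1.17 held 1.

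**Figure D3:**
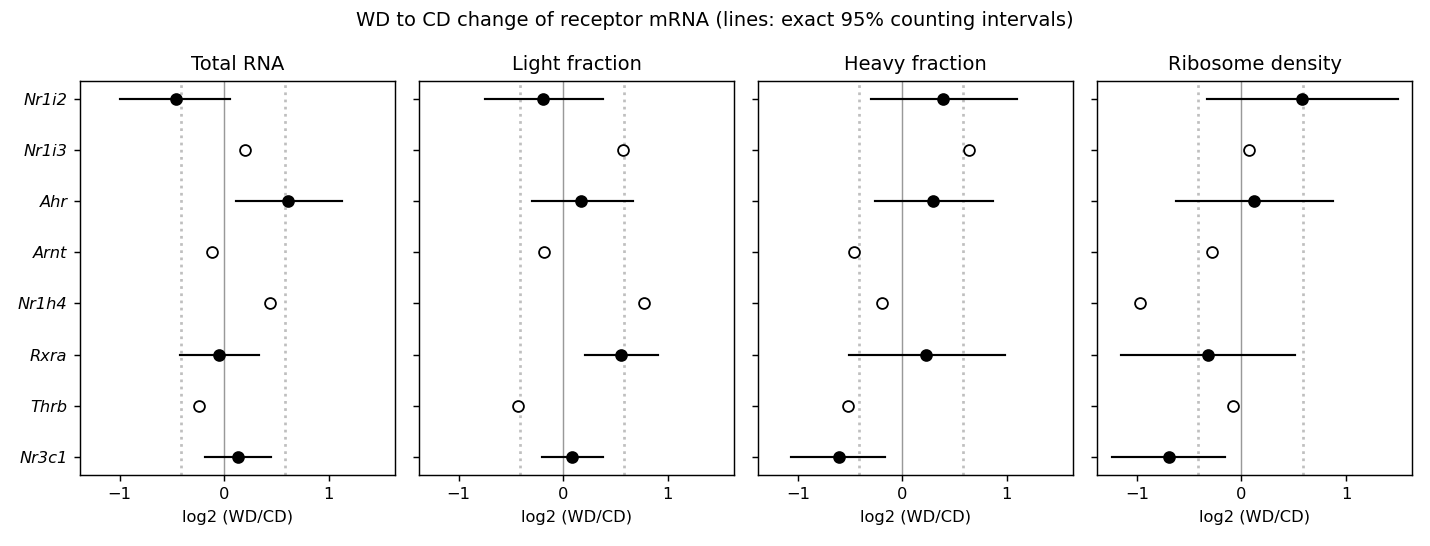
WD to CD difference of each receptor mRNA (horizontal axis, log2) in total RNA, the light fraction, the heavy fraction and ribosome density; filled points carry exact 95% counting intervals (lines), open points have none, and dotted lines mark ratios of 0.75 and 1.5. Only Ahr in total RNA, Rxra in the light fraction, and Nr3c1 in the heavy fraction and in ribosome density have intervals that leave out 0 at the deposited scaling.

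The receptors past a threshold were counted beside all loci compared. In total RNA 1 of 8 (Ahr) was at or above a WD to CD ratio of 1.5, which 17.7% of the loci compared had, and 1 (Nr1i2) had a ratio of at most 0.75, which 22.7% had. In the light fraction 1 (Nr1h4) was at or above 1.5, beside 25.9% of loci, and 1 (Thrb) was at or below 0.75, beside 26.8%. In the heavy fraction 1 (Nr1i3) was at or above 1.5, beside 21.7%, and 3 (Arnt, Thrb and Nr3c1) were at or below 0.75, beside 25.8%. In ribosome density 0 of 8 reached 1.5, beside 27.7%, and 2 (Nr1h4 and Nr3c1) were at or below 0.75, beside 36.1%. Nr1i2 at 1.49 lay just short of the upper limit. The limits are not symmetric, and the study set them on the CD to WD quotient of ribosome density. Taken that way, 2 receptors (Nr1h4 and Nr3c1) were at or above 1.5 in ribosome density, beside 30.9% of loci, and 1 (Nr1i2) was at or below 0.75, beside 32.9%. In total RNA the CD to WD quotient of 0 receptors was at or above 1.5, beside 17.0%, and that of 2 (Ahr and Nr1h4) was at or below 0.75, beside 23.9%. A heavy to light ratio above 1 was found for 4 receptors in the CD, beside 50.2% of loci, and for 5 in the WD, beside 48.5%.

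The median log2 difference of the 8 was 0.04 in total RNA, 0.13 in the light fraction, 0.02 in the heavy fraction and -0.18 in ribosome density. Over all loci compared these medians were 0.02, 0.02, -0.02 and -0.02. Rescaling the libraries to the same FPKM sum moved the medians of all loci to 0.12, -0.29, -0.04 and 0.28, and those of the receptors to 0.14, -0.22, -0.01 and 0.14, so the signs of the light fraction, heavy fraction and density medians depend on the scaling. Of the 16 counting intervals, 4 left out a ratio of 1 as deposited and 3 did so after this rescaling. Those of Ahr in total RNA and Nr3c1 in the heavy fraction did so both times, while the ribosome density interval of Nr1i2 became 1.001 to 3.55. For all loci with fragment numbers, the share of intervals that leave out 1 is not given here.

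Known target mRNAs of each receptor were described from lists of textbook targets, with the same WD to CD thresholds. The shares of all loci at 1.5 or more and 0.75 or less, 17.7% and 22.7% in total RNA and 27.7% and 36.1% in ribosome density, stand beside every list count below, and highest and lowest refer to the WD to CD difference. Of 9 PXR targets compared, 2 had a total RNA ratio of at least 1.5 and 1 of at most 0.75, with a median log2 difference of -0.03. Both of the higher ones were drug oxidases of the Cyp3a family. Cyp3a2 had 230 FPKM (CD) and 898 FPKM (WD) in total RNA (157 and 587 fragments), a log2 difference of 1.97 and a ratio interval of 3.27 to 4.69. It was also higher in the WD in the light fraction (362 and 2126 FPKM) and in the heavy fraction (515 and 1937 FPKM), so that its ribosome density differed by -0.64 (0.513 to 0.798 as a ratio, and 0.644 to 1.002 with the libraries rescaled to the same FPKM sum). Cyp3a23/3a1, a close relative whose reads may be shared with it, had 1.33 and 4.88 FPKM. Por, the electron donor of all microsomal cytochromes P450, was at the other end with 47.3 and 24.5 FPKM (121 and 60 fragments), a log2 difference of -0.94 and an interval of 0.374 to 0.712. Cyp3a9 had 14.7 and 13.3 FPKM in total RNA and the highest ribosome density difference of the list, 0.32.

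CAR targets were compared for 8 genes, of which 1 was at or above 1.5 and 2 were at or below 0.75 in total RNA (median 0.02). Cyp2b1, the classical target, had 16.2 and 9.15 FPKM in CD and WD total RNA (24 and 13 fragments, interval 0.265 to 1.16) and Cyp2b2 had 32.9 and 32.3 FPKM (48 and 45 fragments, interval 0.638 to 1.504). These are near-identical paralogs, so the split of reads between them is uncertain. The locus listed as Cyp2b1 lies at chr7:99142450-99181783 and that of Cyp2b2 at chr1:83103925-83119193. Whether the chr7 values are those of the classical target was not checked. Ephx1, which hydrolyses epoxides, had 86.1 and 153 FPKM, a log2 difference of 0.83, and Gadd45b had 1.59 FPKM in the CD and was listed at 0 in the WD, from 2 and 0 fragments. In ribosome density Gstm1, a glutathione transferase, was highest at 1.41 (2.27 to 3.10 as a ratio) and Cyp2c6v1 lowest at -0.89.

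AhR targets were few, with 4 of 9 listed genes compared, of which 0 were at or above 1.5 and 1 was at or below 0.75 in total RNA (median 0.04). Cyp1a1, the most inducible target of Ahr, was listed at 0 in all 6 libraries. Cyp1a2, its constitutive hepatic relative, had 185 FPKM (CD) and 241 FPKM (WD) in total RNA (369 and 460 fragments), a log2 difference of 0.38 and an interval of 1.13 to 1.499. Ugdh had 77.6 and 102 FPKM (interval 1.08 to 1.60) and the highest ribosome density difference, 0.90. Nqo1 had 2.54 and 0.664 FPKM from 4 fragments and 1 fragment.

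FXR targets were compared for 9 genes, of which 1 was at or above 1.5 and 0 were at or below 0.75 in total RNA (median -0.13). The list pools genes that FXR promotes with Cyp7a1 and Cyp8b1, which it represses, so the median mixes directions. Cyp7a1 was the gene at or above 1.5. Cyp7a1, the rate-limiting enzyme of bile acid synthesis, had 22.2 and 50.6 FPKM in total RNA (85 and 185 fragments), a log2 difference of 1.18 and an interval of 1.75 to 2.98. WD was higher by about as much in its light fraction (30.6 and 58.8 FPKM) and heavy fraction (28.4 and 56.6 FPKM), and ribosome density differed by 0.05. Cyp8b1, the sterol hydroxylase that sets the share of cholic acid, had 282 and 212 FPKM (570 and 411 fragments), a log2 difference of -0.41 and an interval of 0.662 to 0.857. Nr0b2, the repressor SHP through which FXR acts on both enzymes, had 7.69 and 7.03 FPKM from 8 and 7 fragments. Abcb11, the bile salt export pump, had 157 and 141 FPKM (interval 0.815 to 0.994, or 0.871 to 1.06 with the libraries rescaled). In ribosome density Apoc2 was lowest at -1.10, while Nr0b2 was highest, with 0 fragments in the heavy fraction of CD livers and 2 in that of WD livers.

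Thyroid hormone targets were compared for 9 genes, of which 0 were at or above 1.5 and 2 were at or below 0.75 in total RNA (median 0.03). Thrsp, a lipogenic protein, had 67.0 and 70.1 FPKM (interval 0.756 to 1.45) and Dio1, the type 1 deiodinase, had 106 and 108 FPKM (0.822 to 1.27). The malic enzyme mRNA Me1 was lowest at -0.74 with 69.8 and 41.6 FPKM, and Tfrc was highest at 0.58 with 8.77 and 13.2 FPKM. In ribosome density 4 of the 9 were at or below 0.75 and 1 was at or above 1.5 (median -0.32), with Tfrc lowest at -0.91 and Bcl3 highest at 1.27 from 2 fragments in each heavy fraction.

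Glucocorticoid targets were compared for 14 genes, of which 2 were at or above 1.5 and 4 were at or below 0.75 in total RNA (median -0.19, with 11 of 14 lower in the WD, beside 47.0% of all loci). Of the 11 lower, Dusp1 (66.5 and 33.7 FPKM, 132 and 64 fragments) alone had an interval that left out 1, 0.370 to 0.688. Sgk1 (-0.08), Agt (-0.05) and Tdo2 (-0.04) were lower by little, so the count of 11 depends on the scaling of the libraries. The gluconeogenic Pck1 had 258 and 215 FPKM (238 and 190 fragments, interval 0.686 to 1.01) and Tat, tyrosine aminotransferase, had 206 and 223 FPKM (498 and 514 fragments, interval 0.952 to 1.22, or 1.02 to 1.31 with the libraries rescaled). Tat differed in ribosome density, by 0.95 (1.54 to 2.44 as a ratio). Fkbp5, a chaperone induced by glucocorticoids, was lowest with 2.195 and 0.861 FPKM from 8 and 3 fragments, and Igfbp1 was highest with 2.64 and 6.89 FPKM from 4 and 10. Per1 had 4.77 and 3.80 FPKM, and Tsc22d3 30.3 and 19.0 FPKM from 5 and 3 fragments. In ribosome density 3 were at or above 1.5 and 3 at or below 0.75, the extremes being Zbtb16 at 2.47 and Mt2A, which was listed at 0 in the WD heavy fraction. Zbtb16 had 1 and 6 heavy fragments in CD and WD, and a ratio interval of 0.229 to 437. Mt2A had 1 fragment in the light and 1 in the heavy fraction of the CD.

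**Figure D4:**
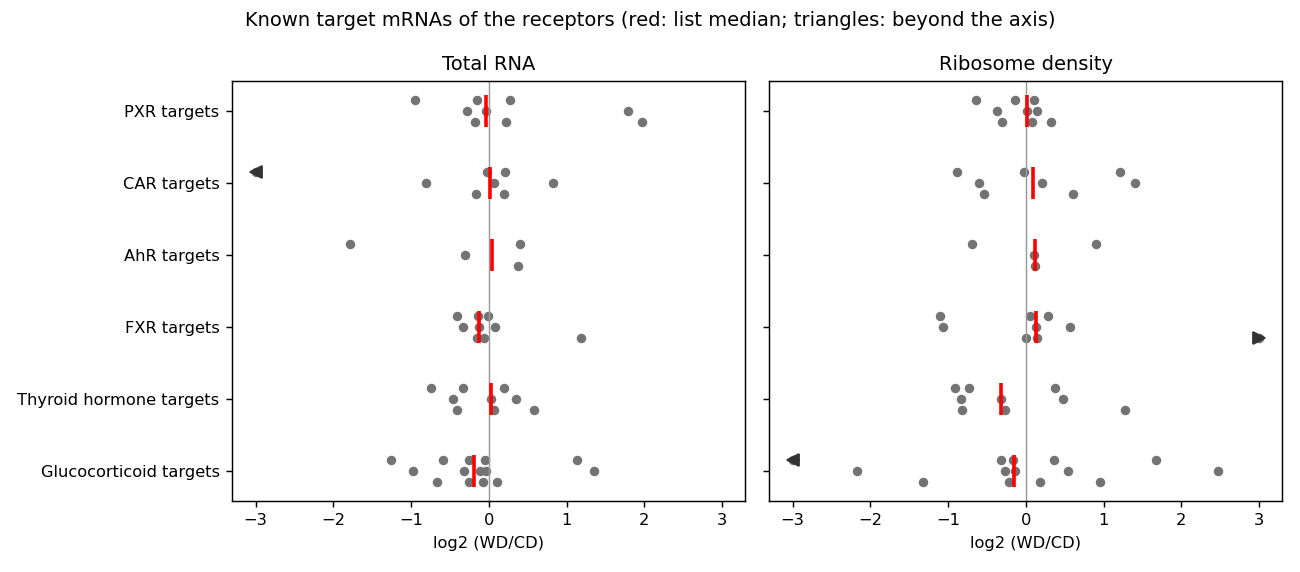
WD to CD difference (horizontal axis, log2) of the target mRNAs of each receptor in total RNA (left) and ribosome density (right), each point 1 gene with a mean of at least 1 FPKM; red bars are list medians and triangles lie beyond the axis. The medians in total RNA run from -0.19 to 0.04, and the points farthest to the right in the PXR and FXR rows are Cyp3a2 at 1.97 and Cyp7a1 at 1.18. The FXR row pools promoted and repressed targets, and Cyp7a1 is a repressed one.

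The relatives and partners of the receptors were counted in the same way. Of 26 other nuclear receptors compared, 3 were at or above 1.5 and 5 at or below 0.75 in total RNA (median 0.06), and 8 and 8 in ribosome density (median 0.08). Rxrb, which can take the place of Rxra, was highest with 5.64 FPKM in CD and 12.1 in WD total RNA, while Esrra, a regulator of mitochondrial genes, was lowest with 8.10 and 2.81. The oxysterol receptor Nr1h3 had 32.3 and 21.0 FPKM in total RNA (53 and 33 fragments, interval 0.408 to 1.02) and a ribosome density ratio interval of 0.241 to 0.784. The second thyroid hormone receptor Thra had 5.12 and 4.01 FPKM, the fatty acid receptor Ppara 57.2 and 58.6, and the hepatocyte factor Hnf4a 366 and 421. The lowest ribosome density difference was that of Nr2f1, which was listed at 0 in the CD light and WD heavy fractions and had 8 fragments or fewer in every library.

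Among 5 relatives of Ahr and Arnt, 0 passed either threshold in total RNA (median -0.03) and 2 were at or below 0.75 in ribosome density (median -0.29). The clock factor Arntl was highest in total RNA at 0.51, Npas2 was lowest in both at -0.25 and -0.80, and Hif1a was highest in ribosome density at 0.01. The ratio interval of Npas2 was 0.287 to 2.35 in total RNA and 0.0582 to 5.76 in ribosome density. Of 11 receptor chaperones, 0 were at or above 1.5 and 2 at or below 0.75 in total RNA (median -0.05), and 4 and 3 in ribosome density (median -0.15). Hsp90ab1 had 720 and 748 FPKM in total RNA and a ribosome density difference of 0.84. Dnajc7 was highest at 0.31 in total RNA and at 1.81 in ribosome density, Fkbp5 was lowest in total RNA, and St13 was lowest in ribosome density at -2.15.

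Of 12 coactivators, 1 was at or above 1.5 and 4 at or below 0.75 in total RNA (median -0.14), and 2 and 3 in ribosome density (median 0.02). Ncoa1 had 7.73 and 9.50 FPKM, and Ncoa3 was highest with 1.39 and 4.35 FPKM from 7 and 21 fragments. Ncoa7 was highest in ribosome density at 0.94, with a ratio interval of 0.0919 to 146. Prmt1 was lowest in both, being listed at 0 in the WD total and heavy libraries. Its total RNA ratio interval of 0 to 5.57 held 1. Of 9 corepressors, 1 was at or above 1.5 and 2 at or below 0.75 in total RNA (median -0.34), and 3 and 1 in ribosome density (median -0.06). Ncor1 had 14.0 and 15.0 FPKM (interval 0.834 to 1.37) and Nrip1 had 8.28 and 6.52 (0.545 to 1.13). Sin3a was highest at 0.60 and Hdac3 lowest at -1.64 in total RNA, while in ribosome density Lcor was highest at 2.22 and Gps2, listed at 0 in the CD light fraction, lowest.

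Enzymes and carriers that set the supply of ligands were compared for 16 genes, of which 1 was at or above 1.5 and 4 at or below 0.75 in total RNA (median -0.04), and 5 and 3 in ribosome density (median 0.14). Hsd11b1, which regenerates active glucocorticoid, had 161 FPKM in CD and 107 in WD total RNA, a log2 difference of -0.58. Cyp7b1, an oxysterol hydroxylase, was highest at 1.31 with 1.08 and 2.84 FPKM. Serpina7, the thyroxine-binding globulin, was lowest at -1.77 from 4 fragments and 1 fragment, and highest in ribosome density at 3.31 (0.569 to 667 as a ratio). Srd5a1 was lowest in ribosome density at -1.33.

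The loci whose values over the 6 libraries were most like those of each receptor were ranked by the root mean square distance between log2 values after removal of the mean, among 8452 other loci. The smallest distance was 0.06, between Nr1h4 and Coro1a, followed by Ski for the same receptor at 0.06. For Nr3c1 the nearest loci were Zzz3 (0.06) and Itch (0.09), for Ahr Smdt1 (0.07) and Slc35b4 (0.08), and for Arnt Ppp5c and Kdm5a (both 0.08). Thrb was nearest to LOC100362023 and Zc3h7a (both 0.10), Nr1i2 to Dennd1a and Ercc3 (both 0.10), Rxra to Gna12 (0.10) and Rab18 (0.11), and Nr1i3 to Myc (0.11) and Crtc1 (0.12). The median distance to all loci was between 0.60 and 0.91. With 6 libraries that share their depth and scaling across genes, these distances are a description.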

How the data were processed

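RNA of 3 rats was pooled by the authors for each of 6 libraries of rat liver (total RNA, light and heavy sucrose gradient fractions; CD and WD). Per the study's methods, ribosomal RNA was removed, reads were aligned to Rnor_6.0 with TopHat, and the Cufflinks pipeline with Cuffnorm gave the deposited values, which are FPKM per locus with lower and upper bounds. The annotation is not given in the sources used here. Differences are log2(FPKM + 0.1), WD over CD, and ribosome density is heavy over light FPKM. Thresholds of 1.5 and 0.75 follow the study's methods, where they were applied to the CD to WD quotient of ribosome density. Here they were applied to the WD to CD quotient, in total RNA and each fraction as well, and counts by the study's quotient are given beside these. Positions in Rnor_6.0 have 1 added to the deposited start, taken to be counted from 0.

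Each library has its own scale factor, so a locus counted in whole fragments has FPKM values that are whole multiples of 1 step after division by the factors. Multiples of the inferred numbers would give the same FPKM and narrower intervals. On simulated data 95.8% of 2000 loci were given numbers, and after a jitter of 1% of the deposited values 0% of 2000 were. Both checks used 2000 loci drawn from those already given numbers, and the simulated fragments were drawn around the inferred ones. A high share was therefore built in, and the check does not cover loci that gave no numbers. The tolerance (0.002 of a fragment, plus a term for large numbers) and a limit of 20 fragments per FPKM were set after implausible numbers had been seen for a few genes. Their sum over loci with numbers was between 203804 and 483215 per library. Ratios are of FPKM + 0.1 and intervals of fragment numbers alone.

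The genes described and the lists were chosen with earlier results of these data known. Named genes were all 8 receptors in every library, a canonical set of targets and partners, and the highest and lowest of each list in total RNA and ribosome density among its loci that averaged 1 FPKM or more. Dusp1, Sgk1, Agt and Tdo2 were named in addition, to show what the count of glucocorticoid targets lower in the WD rests on. For likeness the 2 nearest loci were named. A single gene of the canonical set is not reported here. No p-value was computed, since each group has 1 library. Alternatives were other pseudocounts, scalings, filters, a 2-fold threshold and heavy over total RNA. The software was scipy 1.17.1 and numpy 2.4.6 for statistics, matplotlib 3.10.9 for figures, and pandas 2.3.3 under Python 3.11.15.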

Additional observations from a re-analysis of the deposited data

Results flagged for a closer look

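For 3 receptors the light and heavy fractions differed between the diets in opposite directions, with 1 pooled library behind each value, and the difference between the fractions was not tested across rats. The share of all loci with such opposite directions is not given here. Nr1i2 was lower in the WD light fraction and higher in the WD heavy fraction, a ribosome density difference of 0.58 on the log2 scale. Its counting intervals held 1 in the light fraction (0.596 to 1.30) and in the heavy fraction (0.811 to 2.14). Nr1h4 was higher in the WD light fraction and lower in the WD heavy fraction, a difference of -0.97. Nr3c1 was slightly higher in the WD light fraction and lower in the WD heavy fraction, a difference of -0.70. The light fraction interval of Nr3c1 held 1 (0.868 to 1.30). As deposited, the counting interval of the ribosome density ratio left out 1 for Nr3c1 (0.423 to 0.898) and held it for Nr1i2 (0.796 to 2.83), and Nr1h4 had none. With the libraries rescaled to the same FPKM sum this turned round, at 0.531 to 1.13 for Nr3c1 and 1.001 to 3.55 for Nr1i2, and the light fraction of Nr3c1 differed by -0.27, the same sign as its heavy fraction.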

How the results depend on the processing

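As reported, 2 receptors passed a fold threshold in total RNA and 2 in ribosome density. The count in total RNA was 1 with a pseudocount of 1 FPKM, 1 with each library rescaled to the same FPKM sum, and 0 with a threshold of 2-fold either way. The count in ribosome density was 0 with a threshold of 2-fold either way. With each library rescaled to the same FPKM sum it was again 2, now Nr1h4 and Nr1i2. The difference of Nr1h4 stayed past the threshold at -0.64. That of Nr3c1 became -0.37 (no longer past the threshold) and that of Nr1i2 0.91 (newly past it). The count in ribosome density was 3 with changes centred on the median of all loci and with heavy over total RNA. With the thresholds on the CD to WD quotient, an alternative chosen after seeing the data, the counts were 2 in total RNA (Ahr and Nr1h4, not Nr1i2) and 3 in ribosome density. The remaining alternatives gave the counts as reported. The median of the receptors ranged from 0.02 to 0.14 in total RNA, from -0.22 to 0.13 in the light fraction, from -0.01 to 0.03 in the heavy fraction and from -0.30 to 0.14 in ribosome density, the positive end of the last being the rescaling to the same FPKM sum. Under that rescaling the ribosome density of Rxra differed by 0.01 and that of Arnt by 0.04, against -0.32 and -0.28 as deposited, and with heavy over total RNA that of Ahr was -0.31 and that of Rxra 0.27. Of 242 values under 9 alternatives, 236 stayed within the limits set for them, 6 moved beyond, and 0 that had passed a threshold turned their sign. The filters on low values (a mean of at least 10 FPKM, or no filter) could not change any receptor value. The lowest receptor mean was 11.1 FPKM (Arnt), so those values were fixed in advance. The limits were also wide enough to hold the ribosome density median as it went from -0.18 to 0.14. The 236 is therefore not a measure of robustness. With 1 pooled library per group no library could be left out and no spread among rats was available.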
